A study of Mus musculus with 12 samples.

Results

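The genes described here encode 9 proteins that modify, fold or process procollagen inside and just outside the cell: the prolyl hydroxylase subunits P4ha1, P4ha2 and P4ha3, the lysyl hydroxylases Plod1, Plod2 and Plod3, the chaperones Serpinh1 and Rcn3, and the procollagen processing factor Pcolce. Members were selected by name, and each was represented by an array probe set (transcript cluster) that lists its symbol alone. Where a gene had several such clusters the rule took the one with the highest mean over the 12 arrays, but each member had only 1, so no measured value decided a choice. All 9 of 9 listed members were found, among 19752 genes in all. They were listed with earlier results of these data known. Low values of P4ha3 and Rcn3 with amphiregulin were among those results, so their direction is described here and is no independent support.

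C57BL/6 mice aged 8 weeks gave whole tibialis anterior (TA) muscles, whose RNA was measured on Affymetrix Mouse Gene 1.0 ST arrays. The muscle was injured on day 0 with cardiotoxin, a snake venom toxin that destroys muscle fibres and sets off regeneration. There were 4 groups of 3 arrays. At day 4 after injury, Foxp3-DTR- mice had received either the EGF receptor ligand amphiregulin (AREG) or its vehicle, phosphate-buffered saline (PBS). At day 8, Foxp3-DTR+ mice had received AREG or PBS. AREG or PBS was given into the muscle on day 0 and then into the abdominal cavity every other day. Mice of all 4 groups, Foxp3-DTR- controls included, were also given diphtheria toxin every other day, which removes regulatory T (Treg) cells only where the toxin receptor is expressed under control of Foxp3. Day and genotype changed together, so neither can be told apart from the other. The labels do not say that the arrays of a group came from separate mice, and p-values therefore measure only the spread between these samples. In bulk muscle, fewer cells of a type and less RNA per cell cannot be told apart.

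Median intensities per array lay between 133.7 and 143.2. The 10 markers of mature muscle fibres were present at a high level, with mean log2 intensities per array from 13.22 to 13.44, as the tissue label says. An array that stood apart was AREG replicate 3 at day 8. It was the lowest of its group in the mean of the 9 members and in those of fibril-forming collagens and of fibroblast and macrophage markers. Among single members it was the highest of its group for P4ha1, P4ha2 and Plod3. Values of members and medians of lists at day 8 that moved most without it are also given without it. Single genes of the lists are given with all arrays only. AREG replicate 1 at day 4 had the narrowest spread of log2 intensities over all clusters (an interquartile range of 2.19, against up to 2.72 on the others). It also had the lowest weight when limma weighted arrays by their spread, 0.167, against 0.321 for AREG replicate 3 of day 8.

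Collagen chains are hydroxylated on proline and lysine residues in the endoplasmic reticulum while they are still unfolded. Hydroxyproline lets the chains wind into a stable helix, and hydroxylysine carries sugars and forms the cross-links between collagen molecules in the matrix. Chaperones then hold the folded procollagen until export, and proteinases outside the cell remove its end peptides so that fibrils can form. In injured muscle, fibro-adipogenic progenitors and other fibroblasts are the best known source of this matrix.

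The RefSeq table of mouse promoters (GRCm38.p6) held 8 of the 9 members, all but Plod2. The 100 bases before the transcription start are shown for P4ha3, Serpinh1 and Rcn3, which were lower with AREG at day 4, and for P4ha1, a paralogue of P4ha3 with no call in any of the comparisons. Each runs 5′ to 3′ on the strand of the gene, and capitals mark GGGCGG, a letter string found in many promoters, or its complement CCGCCC.
P4ha3, chr7:100285420-100285519, plus strand: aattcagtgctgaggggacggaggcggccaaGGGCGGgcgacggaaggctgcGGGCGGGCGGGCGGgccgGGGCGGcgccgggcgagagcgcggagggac
Serpinh1, chr7:99353240-99353339, minus strand: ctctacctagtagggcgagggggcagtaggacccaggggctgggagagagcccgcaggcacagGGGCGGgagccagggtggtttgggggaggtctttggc
Rcn3, chr7:45092214-45092313, minus strand: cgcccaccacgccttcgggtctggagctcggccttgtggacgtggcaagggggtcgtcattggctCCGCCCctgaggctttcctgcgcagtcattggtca
P4ha1, chr10:59323196-59323295, plus strand: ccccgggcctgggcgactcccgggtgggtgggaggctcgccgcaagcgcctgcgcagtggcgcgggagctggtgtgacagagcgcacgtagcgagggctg

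Within the 250 bases before the start, searched on both strands, the P4ha3 promoter held 5 matches of GGGCGG, of which those starting at -48, -44 and -40 overlap each other. At least 5 matches were present in 635 of 32851 promoters (1.93%). Of the 8 members, 7 held at least 1 match (all but Plod3), against 32.7% of all promoters. P4ha1 held 1 match, at -209, outside the bases shown above, and P4ha2 and Plod1 held 2 each. ACGTG, the core letters that hypoxia-inducible factors share with many other factors, was found in 5 of 8 members (P4ha1, P4ha2, Plod3, Serpinh1 and Rcn3) and in 16.6% of all promoters. GCGTG was found in 6 of 8 members and in 28.2% of all, CCAAT in 2 of 8 (Plod3 and Rcn3) and in 33.8% of all, and TATAAA in 1 of 8 (Plod1) and in 12.4% of all. These matches describe letters in the windows and nothing of what binds there.

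All 9 members were lower with AREG than with PBS on average at both days, although most single differences did not pass the test. Of all genes, 40.9% were lower at day 4 and 48.8% at day 8. At day 4, limma called 4 members lower (adjusted p under 0.05, by the Benjamini-Hochberg method across the array; P4ha3, Plod2, Serpinh1 and Rcn3) and 0 higher. Over all genes, 2.11% were called lower and 0.79% higher in this comparison. The median log2 change of the 9 members was -0.50 at day 4, where that of all genes was 0.037. The 3 AREG arrays lay wholly below the 3 PBS arrays for 6 members at day 4, a pattern found in 12% of all genes. These 6 were the called genes, Plod3 and Pcolce. The 4 calls rest on each of several arrays. Without AREG replicate 1, AREG replicate 3 or PBS replicate 2 of day 4, 0 members were called, and 15, 9 and 9 genes were called over the whole array. The adjusted p of P4ha3, Plod2 and Rcn3 then lay between 0.0646 and 0.145 by limma. With the replicate number as a block, limma called 5 members at day 4, with Plod3 added (adjusted p = 0.0469), and 914 genes, against 573 without it.

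**Figure D1:**
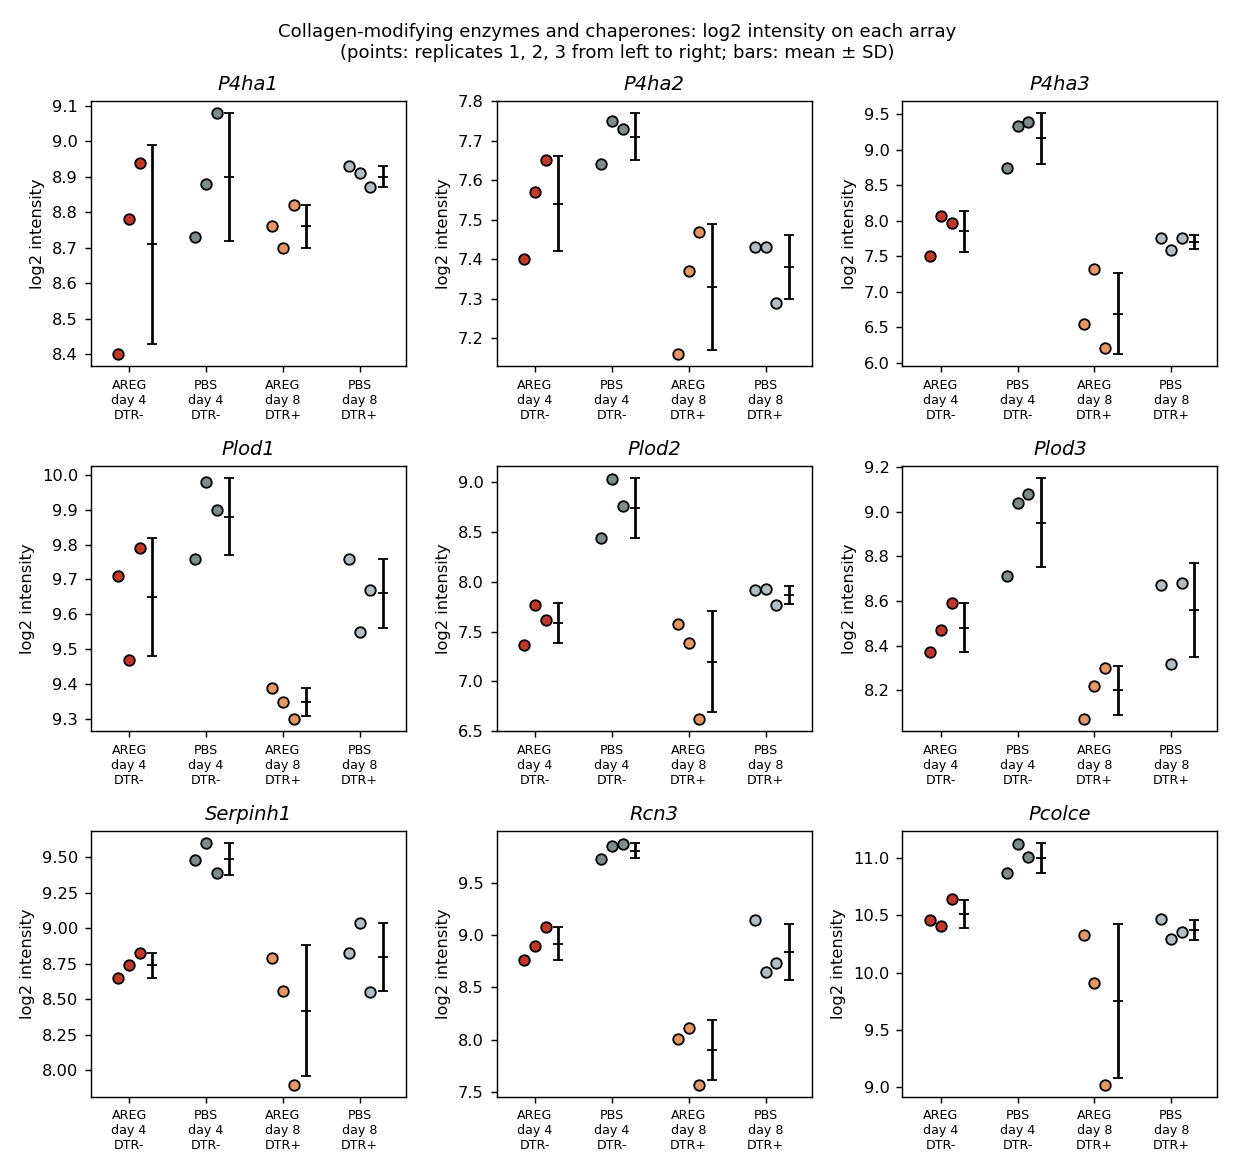
Log2 intensity of each of the 9 members on the 12 arrays, 1 panel per gene, with AREG left of PBS at day 4 (Foxp3-DTR-) and at day 8 (Foxp3-DTR+). Points are arrays and bars are group means ± SD. P4ha3 has group means of 7.85 and 9.16 at day 4 and of 6.69 and 7.70 at day 8, whereas those of P4ha1 stay between 8.71 and 8.90.

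The alpha subunits of collagen prolyl 4-hydroxylase bind the procollagen chain and carry the catalytic site, and an enzyme holds 1 kind of them together with the beta subunit P4hb. P4ha3, the third of these paralogues to be described, showed the largest change of the 9 members at day 4. Its log2 intensities were 7.51, 8.06 and 7.97 with AREG at day 4, against 8.75, 9.33 and 9.39 with PBS. Every AREG array was below every PBS array. P4ha3 fell by 1.31 ± 0.24 on the log2 scale (SE; 2.48-fold; limma, adjusted p = 0.0198). At day 8 the values were 6.55, 7.32 and 6.20 with AREG and 7.76, 7.59 and 7.76 with PBS. The groups again did not overlap, and the AREG arrays spread more widely than the PBS arrays (SD 0.57 and 0.10). The difference of -1.01 ± 0.24 did not pass the adjustment over all genes at day 8 (limma, adjusted p = 0.599), and it was -0.77 without AREG replicate 3.

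P4ha1, the most widely expressed alpha subunit, showed no such pattern. It had log2 intensities of 8.40, 8.78 and 8.94 with AREG and of 8.73, 8.88 and 9.08 with PBS at day 4, and the groups overlapped. Its log2 change was -0.19 at day 4 (95% interval -0.48 to 0.10) and -0.14 at day 8 (-0.43 to 0.15). At day 8 its AREG values of 8.76, 8.70 and 8.82 were nevertheless all below the PBS values of 8.93, 8.91 and 8.87, at a difference that the test did not call (limma, adjusted p = 0.828). P4ha2, the isoform prominent in cartilage, had values from 7.40 to 7.65 with AREG and from 7.64 to 7.75 with PBS at day 4. At day 8 they ran from 7.16 to 7.47 with AREG and from 7.29 to 7.43 with PBS. The intervals of its change were -0.41 to 0.08 at day 4 and -0.29 to 0.19 at day 8, so a change as large as that of P4ha3 lies outside them.

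Among the lysyl hydroxylases, Plod2 was called lower at day 4. Plod2 acts on lysines of the telopeptides at the ends of the collagen molecule, which give the stable cross-links of scar tissue. Its log2 intensities were 7.37, 7.77 and 7.62 with AREG at day 4, against 8.44, 9.03 and 8.76 with PBS. No AREG array reached the lowest PBS array. Plod2 fell by 1.16 ± 0.21 on the log2 scale (2.23-fold; limma, adjusted p = 0.0198). At day 8 Plod2 had 7.58, 7.39 and 6.62 with AREG and 7.92, 7.93 and 7.77 with PBS. These groups did not overlap either, but AREG replicate 3 alone lay far below the others. The log2 difference was -0.67 ± 0.21 with all arrays (limma, adjusted p = 0.599) and -0.39 without that array.

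Plod3, which besides hydroxylating lysine adds sugars to hydroxylysine, had 8.37, 8.47 and 8.59 with AREG at day 4, against 8.71, 9.04 and 9.08 with PBS. The groups were apart, yet the log2 change of -0.47 ± 0.13 narrowly missed the threshold (limma, adjusted p = 0.0734). At day 8 the values were 8.07, 8.22 and 8.30 with AREG and 8.67, 8.32 and 8.68 with PBS, again without overlap, at a log2 change of -0.36 ± 0.13 (adjusted p = 0.63 by limma). Plod1, which hydroxylates lysines in the helical part of the chain, overlapped at day 4, with 9.71, 9.47 and 9.79 under AREG and 9.76, 9.98 and 9.90 under PBS. At day 8 its 9.39, 9.35 and 9.30 with AREG were all below the 9.76, 9.55 and 9.67 with PBS. Neither difference was called, and the log2 changes were -0.23 ± 0.12 at day 4 and -0.31 ± 0.12 at day 8 (limma, adjusted p = 0.344 and 0.63).

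Serpinh1 (HSP47) is a chaperone of the endoplasmic reticulum that binds the folded collagen helix and is needed for its export. It had log2 intensities of 8.65, 8.74 and 8.83 with AREG at day 4, against 9.48, 9.60 and 9.39 with PBS. The groups were clearly apart and each was tight (SD 0.09 and 0.11). Serpinh1 fell by 0.75 ± 0.19 on the log2 scale (1.68-fold; limma, adjusted p = 0.0446), close to the threshold. It was called under 10 of 21 alternative settings, and not without any 1 of the 6 arrays of day 4, AREG replicate 2 of day 8 or PBS replicate 1 or 2 of day 8 (adjusted p from 0.0515 to 0.233 by limma). At day 8 the values were 8.79, 8.56 and 7.90 with AREG and 8.83, 9.04 and 8.55 with PBS. These groups overlapped. The log2 change was -0.39 ± 0.19 with all arrays (limma, adjusted p = 0.657) and -0.13 without AREG replicate 3.

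Rcn3 (reticulocalbin 3) is a calcium-binding protein of the endoplasmic reticulum lumen from the CREC family, with a role in protein maturation in the secretory pathway. It had 8.76, 8.90 and 9.08 with AREG at day 4, against 9.73, 9.85 and 9.87 with PBS. The gap between the groups was wider than the range within either. Rcn3 fell by 0.90 ± 0.16 on the log2 scale (1.87-fold; limma, adjusted p = 0.0198). At day 8 Rcn3 had 8.01, 8.11 and 7.57 with AREG, against 9.15, 8.65 and 8.73 with PBS. Here too every AREG array was below every PBS array. The log2 difference at day 8 was -0.95 ± 0.16 with all arrays (limma, adjusted p = 0.239) and -0.78 without AREG replicate 3 (adjusted p = 0.531 by limma), so it remained uncalled.

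Pcolce binds the C-terminal propeptide of procollagen and speeds its removal by proteinases of the Bmp1 type. Its values were 10.46, 10.41 and 10.64 with AREG at day 4 and 10.87, 11.12 and 11.01 with PBS, without overlap. The log2 change of -0.50 ± 0.23 was not called (limma, adjusted p = 0.276). At day 8 they were 10.33, 9.91 and 9.02 with AREG and 10.47, 10.29 and 10.35 with PBS. The first AREG array lay among the PBS arrays, and the third lay more than 1 log2 unit below all of them. The log2 change was -0.62 ± 0.23 with that array (limma, adjusted p = 0.63) and -0.25 without it.

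At day 8 limma called 0 of the 9 members, in a comparison in which it called 1 gene lower over the whole array (0.00506%). At an unadjusted p under 0.05, 6 members were lower and 0 higher, against 5.57% of genes lower and 2.05% higher. They were P4ha3, Plod1, Plod2, Plod3, Pcolce and Rcn3. AREG arrays lay wholly below PBS arrays for 6 members (P4ha1, P4ha3, Plod1, Plod2, Plod3 and Rcn3), against 7.14% of all genes. The median change of the members was -0.39 on the log2 scale and -0.29 without AREG replicate 3, where all genes had medians of 0.005 and -0.016.

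**Figure D2:**
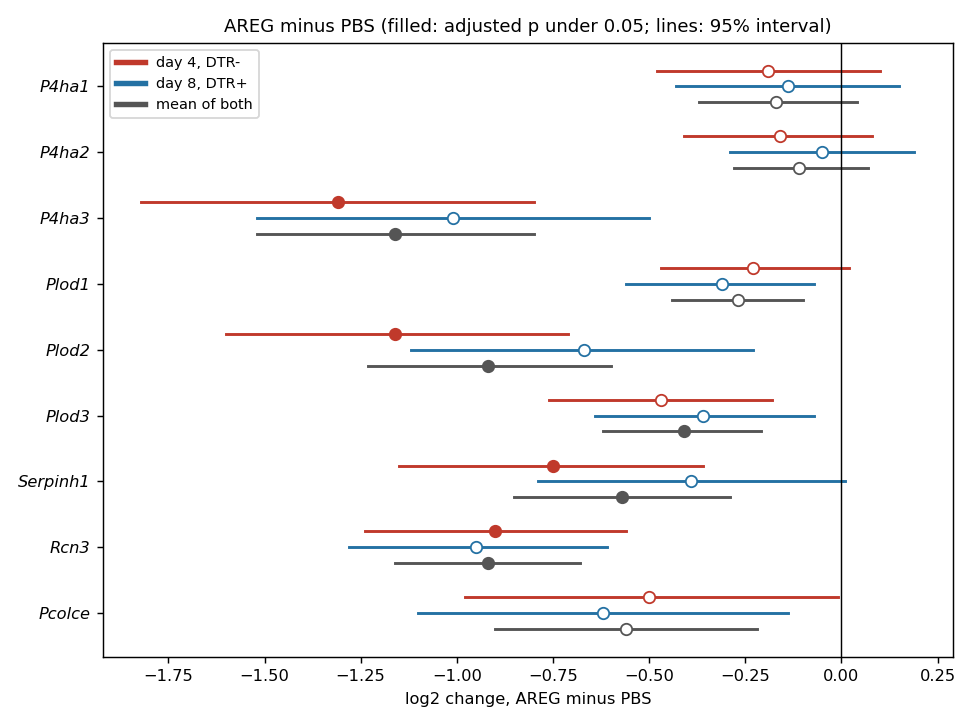
Log2 change with AREG relative to PBS for each member at day 4 (Foxp3-DTR-), at day 8 (Foxp3-DTR+) and as the mean of both. Points are estimates from limma, filled where adjusted p was under 0.05, and lines are 95% intervals. The 9 estimates at both days are below 0, from -1.31 to -0.16 at day 4 and from -1.01 to -0.05 at day 8, and those of P4ha1 and P4ha2 have intervals that include 0 at both days.

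The mean of the AREG effects at day 4 and day 8 was also tested. By limma, 5 members were called lower, against 2.99% of all genes. The log2 changes were -0.92 ± 0.11 for Rcn3 (adjusted p = 0.00218), -1.16 ± 0.17 for P4ha3 (adjusted p = 0.00949) and -0.92 ± 0.15 for Plod2 (adjusted p = 0.0122). These 3 were called under all 20 alternative settings, including each in which 1 array was left out. Serpinh1 had -0.57 ± 0.13 and Plod3 -0.41 ± 0.10 (adjusted p = 0.0317 for both), and these calls held under 12 and 11 of the 20. Both were lost, so that 3 members were called, without any 1 of the AREG arrays of day 4, PBS replicate 2 of day 4 or PBS replicate 1 or 3 of day 8 (limma, adjusted p from 0.0519 to 0.107). For the others the mean log2 changes were -0.56 for Pcolce, -0.27 for Plod1, -0.17 for P4ha1 and -0.11 for P4ha2 (limma, adjusted p = 0.0687, 0.0802, 0.395 and 0.53). The arrays of day 4 contribute to this mean as much as those of day 8, so a call in it is not a call at day 8.

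The effect of AREG did not differ detectably between the days for any member. The test of the difference (day 8 minus day 4) called 0 members and 0% of all genes by limma. At an unadjusted p under 0.05, 0 members and 1160 genes passed. The estimate was 0.48 for Plod2 (95% interval -0.14 to 1.11), 0.36 for Serpinh1 (-0.20 to 0.92), 0.30 for P4ha3 (-0.43 to 1.02) and -0.05 for Rcn3 (-0.52 to 0.43). Without AREG replicate 3 of day 8 the estimates were 0.77 for Plod2, 0.62 for Serpinh1, 0.54 for P4ha3 and 0.12 for Rcn3, and 0 members were called (limma, adjusted p from 0.238 to 0.951 for these 4). All of the intervals given include 0, and their width leaves room for effects of different size at day 4 and day 8.

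Whether paralogues changed unequally with AREG was tested with their log2 ratios on the same array. The mean of the day 4 and day 8 changes was tested by exact permutation (two-sided, 400 relabellings, smallest possible p = 0.005). AREG and PBS labels were exchanged within each day. Each p belongs to both days together, and no single day was tested. The test was added after the values had been seen. It covered 6 pairs, and 4 passed after Benjamini-Hochberg adjustment. These 4 each hold P4ha3 or Plod2, and ratios within a family share genes, so they are not independent of each other. Low values of P4ha3 with AREG were known beforehand, so its ratios are no independent support. The ratio of P4ha3 to P4ha2 changed with AREG by -1.15 at day 4 and by -0.96 at day 8 on the log2 scale, a mean change of -1.05 (exact permutation p = 0.005, adjusted p = 0.015). That of P4ha3 to P4ha1 changed by -1.12 and -0.87 (exact permutation p = 0.005, adjusted p = 0.015). For both ratios, AREG arrays were wholly below PBS arrays at both days. Without AREG replicate 3 of day 8 the day 8 changes were -0.65 and -0.60. Both ratios passed whichever array was left out (exact permutation test, adjusted p from 0.01 to 0.03). Groups that are apart stay apart when an array is removed, so this check could hardly fail and adds no support. The ratio of P4ha2 to P4ha1 changed by 0.03 and 0.09 (exact permutation p = 0.425).

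The ratios of Plod2 to its paralogues were lower with AREG at day 4. Its log2 ratio to Plod1 changed by -0.93 at day 4 and by -0.36 at day 8. The mean change, which was tested, was -0.65 (exact permutation p = 0.015, adjusted p = 0.03). The ratio to Plod3 changed by -0.69 and -0.32, a mean change of -0.5 (exact permutation p = 0.03, adjusted p = 0.045). For these ratios the groups were apart at day 4 and overlapped at day 8. Without AREG replicate 3 of day 8 the day 8 changes were -0.10 to Plod1 and 0.02 to Plod3, and neither ratio passed (exact permutation test, adjusted p = 0.06 and 0.096). With each of the 12 arrays left out in turn, the ratio to Plod1 passed 7 times and that to Plod3 2 times (exact permutation test, adjusted p from 0.01 to 0.07 and from 0.0225 to 0.108). The ratio of Plod3 to Plod1 changed by -0.24 and -0.05 (exact permutation p = 0.13, adjusted p = 0.156). P4ha1, P4ha2 and Plod1 were not called in either AREG comparison.

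The day 8 groups (Foxp3-DTR+) were also set against the day 4 groups (Foxp3-DTR-) within a treatment, where time after injury and Treg depletion cannot be told apart. Between the PBS groups, limma called 3 members lower at day 8 (P4ha3, Plod2 and Rcn3) and 0 higher, against 1.15% of all genes lower and 1.19% higher. The log2 changes were -1.46 ± 0.24 for P4ha3 (2.74-fold; limma, adjusted p = 0.00332), -0.97 ± 0.16 for Rcn3 (1.96-fold; adjusted p = 0.00305) and -0.87 ± 0.21 for Plod2 (1.83-fold; adjusted p = 0.0393). Day 8 arrays lay wholly below day 4 arrays for 8 of the 9 members, a pattern found in 14.2% of all genes. P4ha1 was the exception, at a log2 change of 0.01 (95% interval -0.28 to 0.30). The call of Plod2 held under 13 of 21 alternative settings and was lost without AREG replicate 3, PBS replicate 2 or PBS replicate 3 of day 4, AREG replicate 2 of day 8 or any 1 of the PBS arrays of day 8 (limma, adjusted p from 0.0502 to 0.258). Without AREG replicate 3 of day 8, which enters only through the shared spread, 5 members were called and 719 genes, against 463 genes with it.

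Between the AREG groups, 2 members were called lower at day 8 by limma, against 0.192% of all genes. Rcn3 had a log2 change of -1.02 ± 0.16 (2.03-fold; limma, adjusted p = 0.00454) and P4ha3 one of -1.16 ± 0.24 (2.24-fold; adjusted p = 0.0335). Rcn3 kept its call under all 21 alternative settings. P4ha3 kept it under 11. It lost it without any 1 of the AREG arrays of day 4, AREG replicate 1 of day 8, PBS replicate 2 of day 4 or PBS replicate 1 or 2 of day 8 (limma, adjusted p from 0.0522 to 0.157). Day 8 arrays were wholly below day 4 arrays for 5 members (P4ha3, Plod1, Plod3, Pcolce and Rcn3), against 8.97% of all genes. Plod2 and Serpinh1 overlapped here, at log2 changes of -0.39 and -0.33 with all arrays and of -0.10 and -0.07 without AREG replicate 3 of day 8. The comparisons within a treatment share arrays with the comparisons of AREG and PBS, and their values are therefore only set side by side.

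**Figure D3:**
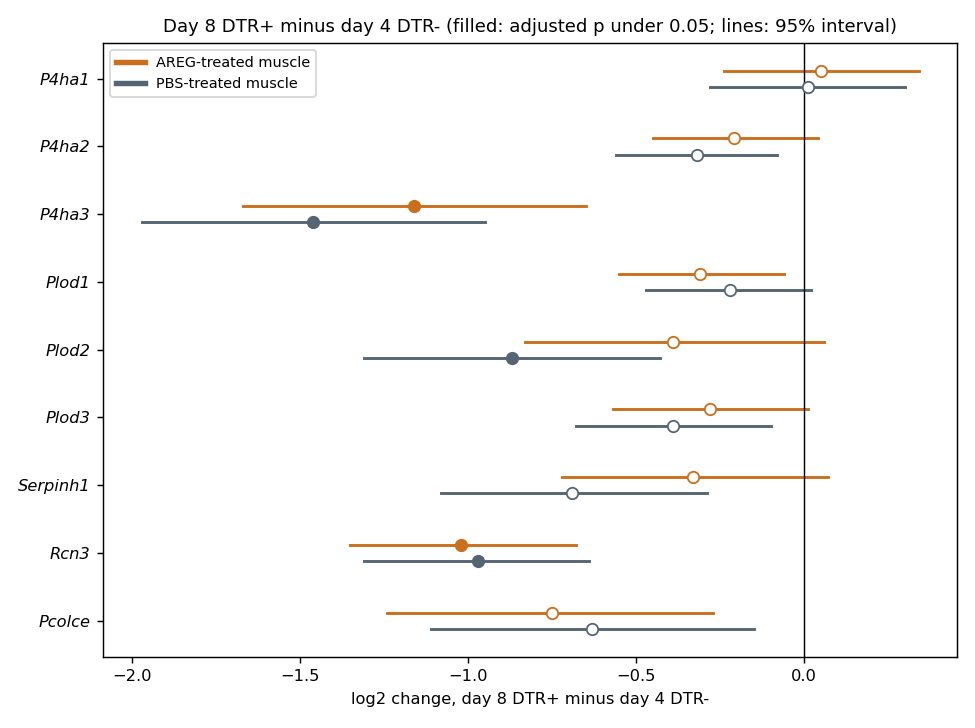
Log2 change at day 8 (Foxp3-DTR+) relative to day 4 (Foxp3-DTR-) for each member, in the AREG groups and in the PBS groups. Points are estimates from limma, filled where adjusted p was under 0.05, and lines are 95% intervals. P4ha3 and Rcn3 lie near or below -1 in both (-1.16 and -1.02 with AREG, -1.46 and -0.97 with PBS), and P4ha1 lies at 0.05 and 0.01.

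In the order of group means, PBS at day 4 was the highest group for all members but P4ha1, in which both PBS groups had a mean of 8.90. AREG at day 8 was the lowest group for all members except P4ha1, whose lowest mean of 8.71 was that of AREG at day 4. P4ha3 at day 4 with AREG (7.51 to 8.06) and at day 8 with PBS (7.59 to 7.76) had ranges that overlapped, and so did Rcn3 (8.76 to 9.08 and 8.65 to 9.15) and Serpinh1 (8.65 to 8.83 and 8.55 to 9.04). For Plod2 these neighbouring groups were 7.37 to 7.77 and 7.77 to 7.93.

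Across the 12 arrays most members varied together. The 36 pairs had a median Pearson correlation of 0.799, from 0.222 to 0.966, and 18 pairs exceeded 0.8. P4ha3 with Rcn3 had the highest value, followed by Plod2 with Serpinh1 (0.956). P4ha1 stood outside, with a median correlation of 0.355 to the other members, whereas that of Rcn3 was 0.897. These correlations are descriptions over arrays that share the 4 groups, and they include the group differences given above. The same median was not computed for other genes, so the values are not shown to be particular to the members. With group means removed, the median was 0.34, from -0.504 (P4ha2 with Pcolce) to 0.854 (Plod2 with Pcolce). The closest pairs within groups were Plod2, Serpinh1 and Pcolce, at 0.832 to 0.854, and they rested on AREG replicate 3 of day 8. Without that array Plod2 with Pcolce was at 0.519, Serpinh1 with Pcolce at 0.382 and Plod2 with Serpinh1 at 0.509, while the median over all pairs was 0.396.

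**Figure D4:**
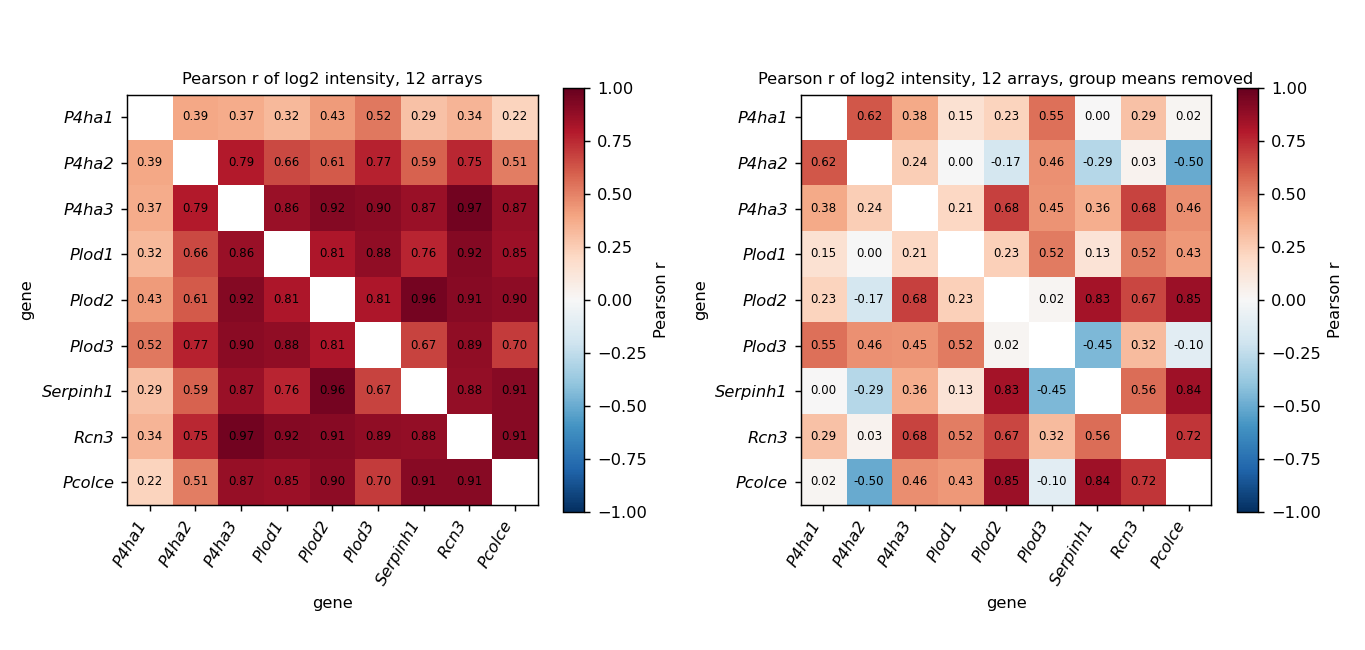
Pearson correlation of log2 intensity between members over 12 arrays, as measured (left) and after removal of the group means (right); each square is a pair of genes. P4ha1 correlates with the others at 0.222 to 0.524 on the left, and on the right only a few pairs, such as Plod2 with Pcolce at 0.854, stay high.

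The genes whose values over the 12 arrays were most like the mean of the standardised members were Snx30 (r = 0.98), Scd2 (0.975), Arhgap24 (0.97), Igf2r (0.968), Tnc (0.966), Tspan6 (0.966), Ammecr1 (0.965), Clcn5 (0.963), Asns (0.961) and Plpp5 (0.961). For single members the nearest genes differed. Pcolce was closest to Col1a2, Sparc and Col1a1 (0.984, 0.984 and 0.982), which encode type I collagen chains and a collagen-binding glycoprotein of the matrix. Serpinh1 was closest to Sfrp2, Loxl1 and Mmp23 (0.985, 0.982 and 0.977), and Plod2 to Anln, Col5a2 and Slc25a24 (0.992, 0.986 and 0.978). P4ha3 was closest to Snai2, Bicc1 and Pdia5 (0.983, 0.981 and 0.972), and Rcn3 to Mxra8, Olfml3 and Asns (0.981, 0.979 and 0.975). P4ha1, P4ha2, Plod1 and Plod3 were closest to Inpp4b, Jag1, Ttyh2 and Tmem183a (0.933, 0.952, 0.95 and 0.969). These are the highest of 19752 correlations over 12 arrays and carry no test.

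Other genes of the pathway were read from lists chosen with earlier results known. Their calls, and those of the marker lists below, were not recomputed with each array left out. Without AREG replicate 1, AREG replicate 3 or PBS replicate 2 of day 4, limma called 15, 9 and 9 of all genes there. Of 11 other genes of collagen hydroxylation and glycosylation, limma called 3 lower with AREG at day 4 and 0 higher, at a median log2 change of -0.37. Ppib (cyclophilin B), a part of the prolyl 3-hydroxylation complex, had a log2 change of -0.91 ± 0.20 and P4hb, the beta subunit that pairs with the P4ha proteins, one of -0.57 ± 0.13 (limma, adjusted p = 0.0334 for both). P3h1, the hydroxylase of that complex, fell by 0.44 ± 0.11 (adjusted p = 0.0464 by limma). The collagen galactosyltransferase Colgalt1 had a log2 change of -0.37 ± 0.12 (adjusted p = 0.102 by limma). With the replicate number as a block 4 were called at day 4, Crtap being the addition. At day 8, 0 of the 11 were called, at a median of -0.19. For the mean effect 2 were called lower, Ppib (-0.77 ± 0.14; limma, adjusted p = 0.0187) and P3h1 (-0.35 ± 0.08; adjusted p = 0.0278).

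Folding and export factors were mostly lower without calls at single days. Of 22 listed, 20 were measured, and limma called 0 at day 4, where the median was -0.35 and 15 of 20 were lower. The disulfide isomerases Pdia4 (-0.73 ± 0.20) and Pdia3 (-0.81 ± 0.23) came closest (limma, adjusted p = 0.0639 and 0.0733). With the replicate number as a block, 5 were called lower at day 4 (Fkbp7, Pdia3, Pdia4, Sec24d and Kdelr3). For the mean effect 3 were called lower: the proline isomerase Fkbp14 (-0.49 ± 0.11; limma, adjusted p = 0.0325), the retrieval receptor Kdelr3 (-0.90 ± 0.22; 0.0388) and Pdia4 (-0.57 ± 0.14; 0.0422). Of the 4 other CREC proteins, relatives of Rcn3, 1 was called at day 4, Rcn1, which fell by 0.81 ± 0.19 (limma, adjusted p = 0.0386). Rcn2 and Sdf4 had log2 changes of -0.01 ± 0.12 and 0.01 ± 0.15.

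Enzymes that process procollagen outside the cell were split in direction at day 4. Of 10 listed, 9 were measured, of which 4 were lower and 5 higher at day 4, with a median change of 0.12 at day 4 and -0.04 at day 8 (-0.01 without AREG replicate 3). Adamts14, which removes N-terminal propeptides, fell by 0.72 ± 0.16 at day 4 (limma, adjusted p = 0.0315). Bmp1, the proteinase that Pcolce assists, had a log2 change of -0.61 ± 0.21 (adjusted p = 0.143 by limma). Pcolce2, the paralogue of Pcolce, had one of 0.41 ± 0.15 (adjusted p = 0.147 by limma), the opposite sign to that of Pcolce.

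The substrates were lower in part. Of 11 fibril-forming collagen chains, 2 were called at day 4 with AREG: Col5a2, at a log2 change of -0.93 ± 0.21, and Col5a1, at -0.49 ± 0.12 (limma, adjusted p = 0.0334 and 0.0446). The median of the list was -0.24. Col3a1 (-0.86 ± 0.34) and Col1a2 (-0.61 ± 0.24) were not called (limma, adjusted p = 0.202 and 0.205). At day 8, 0 of 11 were called, and the median was -0.10 with all arrays and -0.06 without AREG replicate 3. The list was uneven there, with 7 lower and 4 higher. With all arrays, Col1a1 had -0.78 ± 0.29 and Col1a2 -0.68 ± 0.24 at day 8 (limma, adjusted p = 0.63 and 0.626). Neither is given without AREG replicate 3, so the part of that array in these values is not known. Of 12 other collagen chains, 0 were called at either day (2 at day 4 with the replicate number as a block, Col8a1 and Col12a1) and 2 for the mean effect, Col12a1 (-0.83 ± 0.18) and Col14a1 (-0.83 ± 0.21; limma, adjusted p = 0.0278 and 0.043). The median of these 12 other chains was -0.27 at day 4 and -0.38 at day 8, the last being -0.10 without AREG replicate 3. Mean log2 intensities of the fibril-forming list were 8.72, 8.64 and 8.71 with AREG at day 4, against 8.98, 9.15 and 8.94 with PBS.

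Prolyl and lysyl hydroxylases need oxygen, 2-oxoglutarate and ascorbate, and P4ha1, P4ha2 and Plod2 are known targets of hypoxia-inducible factors in cell culture. Of 17 other targets of these factors, 0 were called lower and 2 higher with AREG at day 4, Vegfa and Egln1 (0.56 ± 0.12 and 0.56 ± 0.14; limma, adjusted p = 0.0324 and 0.048). With the replicate number as a block Pfkfb3 was also called higher. The median of the list was 0.11, and P4ha1, P4ha2 and Plod2 had log2 changes of -0.19, -0.16 and -1.16 at day 4. A part of these factors in the values of the members was not tested. At day 8, 0 of 17 were called, at a median of 0.10 with all arrays and -0.04 without AREG replicate 3. Of 8 genes of 2-oxoglutarate and ascorbate supply, 7 were measured and 0 were called in any of the AREG comparisons, with medians of -0.06 at day 4 and -0.04 at day 8, the last being -0.14 without AREG replicate 3.

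Between the PBS groups, 2 of the 11 hydroxylation and glycosylation genes were called lower at day 8, P3h1 (-0.47 ± 0.11) and P4hb (-0.51 ± 0.13; limma, adjusted p = 0.036 and 0.0463). P3h2 had a log2 change of 0.89 ± 0.24 in the other direction (adjusted p = 0.0773 by limma). All 11 fibril-forming chains had negative changes, against 58.7% of all genes. By limma 2 of these chains were called, Col5a1 (-0.60 ± 0.12) and Col5a2 (-0.84 ± 0.21), at adjusted p = 0.0139 and 0.0463. Of the other chains Col12a1 was called lower (-1.12 ± 0.26; adjusted p = 0.0341 by limma). In the folding, procollagen processing and CREC lists 0 were called.

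Markers of fibroblasts, macrophages and regenerating fibres were mostly lower with AREG at day 4. All 7 endothelial markers were higher there, without a call, against 59.1% of all genes. Of 10 measured markers of fibro-adipogenic progenitors and fibroblasts (11 listed), 0 were called with AREG at day 4 and 8 of 10 were lower, at a median of -0.36, which was -0.35 at day 8. Their mean log2 intensities were 9.77, 10.08 and 10.02 with AREG at day 4, against 10.22, 10.30 and 10.23 with PBS, so the groups did not overlap. At day 8 they were 10.18, 10.07 and 9.21 with AREG, against 10.14, 10.29 and 10.12 with PBS. Without AREG replicate 3 the day 8 median was -0.05. Between the PBS groups the median was -0.02, where that of the members was -0.63. No listed marker can be at 0 on this scale.

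Markers of macrophages and regenerating fibres were called. Of 9 macrophage markers, 7 were called lower with AREG at day 4 by limma, and their mean log2 intensities were 8.04, 8.41 and 8.07, against 8.97, 9.41 and 9.42 with PBS. Of 8 markers of regenerating fibres and myoblasts, 4 were called lower (6 with the replicate number as a block), with means of 8.90, 9.36 and 8.85, against 10.02, 10.37 and 9.67. At day 8, 0 markers of either list were called, in a comparison with 1 call over the whole array. All 9 macrophage markers were lower there, against 48.8% of all genes, at a median of -0.47 (-0.21 without AREG replicate 3). Of the 8 regenerating fibre markers 6 were lower, at a median of -0.34 (-0.15 without that array). For the mean effect, limma called 7 macrophage and 5 regenerating fibre markers lower. In the PBS groups, 4 regenerating fibre markers were called lower at day 8, and 0 of 9 macrophage markers were called. Of the 9 T cell and Treg markers 6 were called higher, Il2ra among them. Between the AREG groups, 2 regenerating fibre markers were called lower at day 8 and 2 T cell and Treg markers higher, Cd3g and Cd3e. There 0 macrophage markers were called, but all 9 were higher at day 8, against 34.8% of all genes. Their median was 0.37, where the members had -0.33. Endothelial (7), tenocyte (5) and mature fibre (10) markers gave 0 calls with AREG at day 4 or day 8. The same held for T cell and Treg (9) and chondrocyte or bone (4 of 5) markers. The part of any of these cell types in the values of the 9 members was not tested.

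**Figure D5:**
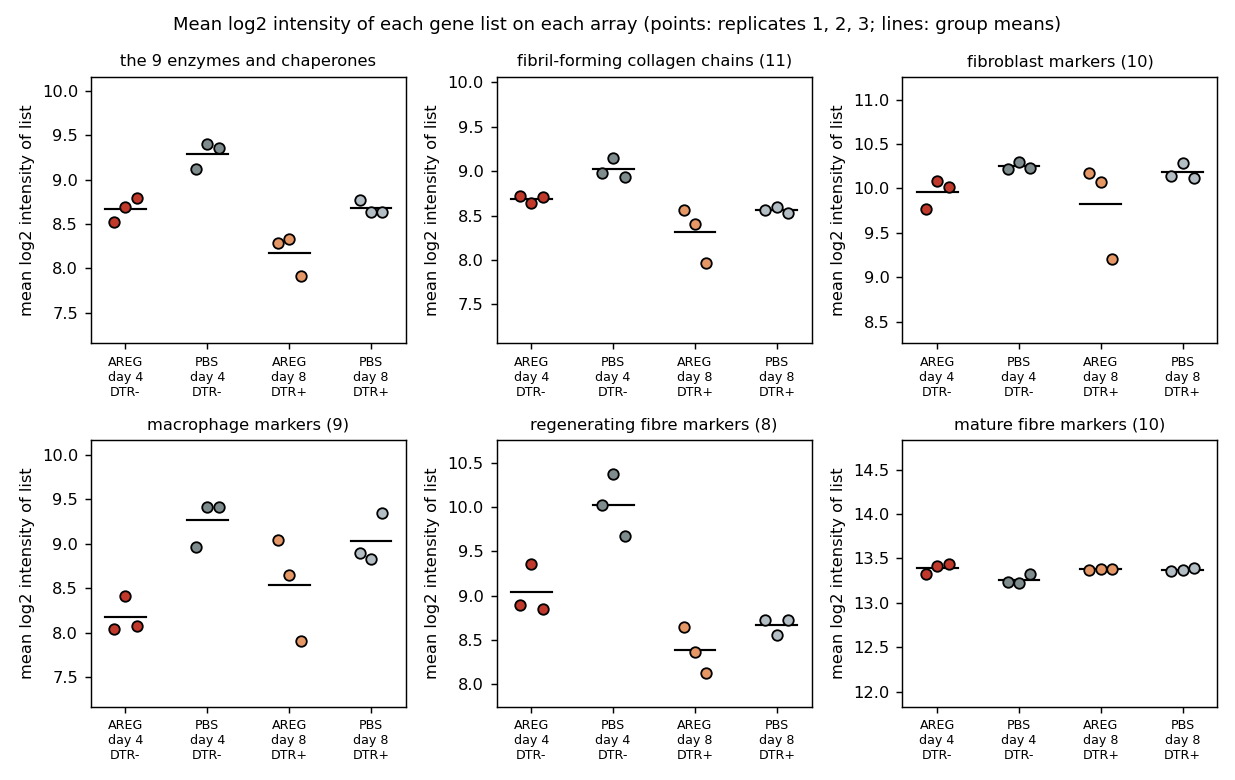
Mean log2 intensity per array of the 9 members, of fibril-forming collagen chains and of the marker lists named in the panels, with AREG left of PBS at day 4 (Foxp3-DTR-) and at day 8 (Foxp3-DTR+); points are arrays and every panel spans the same number of log2 units. At day 4 the members read 8.52 to 8.79 with AREG and 9.12 to 9.40 with PBS, while the macrophage list reads 8.04 to 8.41 and 8.97 to 9.42, and AREG replicate 3 is the lowest AREG array at day 8 in the members, collagen, fibroblast and macrophage panels.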

How the data were processed

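RNA of 12 samples of whole TA muscle was measured on arrays. Affymetrix Power Tools and RMA are named in the submitters' processing notes; RMA corrects background, equalises arrays and summarises probes. Versions and genome build: not given in the sources used here. Linear intensity values (4.65 to 21512.5) of 24922 clusters were deposited by the authors. RMA can compress differences of dim genes. Here log2 of these values was used as is, without pseudocount or filter. Clusters with 1 symbol in the array's gene table (21425) were kept, 1 per gene, and 21347 matched RefSeq (GRCm38.p6), used for names and promoters only.

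Fits used limma 3.58.1 (R 4.3.3; 4 group means, 8 residual and 7.1 prior degrees of freedom), two-sided, with Benjamini-Hochberg adjustment over 19752 genes. ± is the SE of the fit, intervals are 95%, and n is 3 per group. The scripts were tested on simulated data. Members and lists were chosen with earlier results of these data known. The text names all members, up to 4 genes per list with the smallest p, and the genes most like a member. Residuals of arrays with the same replicate number correlated at 0.558, 0.201 and 0.511 at day 4 but at -0.198, 0.123 and -0.003 at day 8. The numbers come from the labels' titles, which name no shared batch; as pairs correlated above 0.1 at day 4 but not all at day 8, the fits have no block, and day 4 calls that a block changes are given beside the result. Alternatives were other fits, weights, scalings, a pseudocount of 32, a filter at the median level and leaving out each array; values without AREG replicate 3 of day 8 for lists and correlations, list calls with the block, and the ratio tests, were added after seeing the data.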

Additional observations from a re-analysis of the deposited data

How the results depend on the processing

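The sizes of the groups (3 arrays) and the spread of AREG replicate 3 at day 8 limit these results, and the cause of a lost or added call was not tested. Of 1116 member values recomputed under alternatives, 1006 kept their direction and their side of the threshold, 55 lost a call, 34 gained one and 21 changed sign, none of them of a value called in the report. Leaving out each array in turn, the number of members called ranged from 0 to 6 at day 4 (4 in the report), from 3 to 6 for the mean effect (5), from 2 to 5 between the PBS groups (3) and from 1 to 2 between the AREG groups (2), and was 0 throughout at day 8 and for the difference of effects. Genes called over the whole array then ranged from 9 to 1336 at day 4 (573), from 34 to 1488 for the mean effect (673), from 209 to 719 between the PBS groups (463) and from 79 to 458 between the AREG groups (142).

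With array weights, which gave AREG replicate 1 of day 4 a weight of 0.167 and replicate 3 one of 5.52, limma called 6 members and 5305 genes at day 4, 5 and 1192 at day 8, 7 and 4902 for the mean effect, 1 (Plod2, higher) and 2232 for the difference of effects, 7 and 1649 between the PBS groups and 8 and 6676 between the AREG groups. Fitting only the 6 arrays compared gave 5 members and 938 genes at day 4, 5 and 759 between the PBS groups and 1 and 86 between the AREG groups. The trend and robust options and the pseudocount of 32 each gave 1 member between the AREG groups, with 130 and 91 genes, and with the pseudocount 3 members and 358 genes were called at day 4.

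Adding the replicate number as a block to the fit gave 5 members and 914 genes at day 4, 6 members (Pcolce added; limma, adjusted p = 0.0391) and 1104 genes for the mean effect, 0 at day 8, 0 for the difference, 4 between the PBS groups and 2 between the AREG groups.

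Sign changes were small. Under array weights P4ha1 had log2 changes of 0.00 at day 4, -0.20 for the difference of effects, 0.00 between the PBS groups and -0.20 between the AREG groups, the last called there (limma, adjusted p = 0.0331). Repeated quantile normalization gave 0.01 for P4ha2 at day 8, 0.04 for Rcn3 in the difference and -0.05 for P4ha1 between the PBS groups. With 1 array left out, P4ha2 ran from -0.12 to 0.04 at day 8, and P4ha1 from -0.08 to 0.10 between the PBS groups and from -0.10 to 0.17 between the AREG groups. In the difference of effects the ranges were -0.11 to 0.16 (P4ha1), -0.02 to 0.54 (P4ha3), -0.01 to 0.23 (Plod3), -0.41 to 0.24 (Pcolce) and -0.15 to 0.12 (Rcn3).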
